A study of Homo sapiens with 4 samples.

Results

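The genes of cholesterol synthesis and of its control were examined in untreated HaCaT cells, a line of human skin keratinocytes that grew immortal on its own. The set holds 26 genes chosen by symbol from a list of the pathway, out of 44591 genes in the files, and each symbol was found in 1 protein-coding entry. It comprises 8 enzymes of the mevalonate pathway, 12 enzymes that make squalene and turn it into cholesterol, and 6 genes that regulate the pathway or carry sterol. The list does not hold every gene of the pathway. RNA-seq had been performed on 4 replicates of 1 condition, with no treated group and no genetic change, so genes were compared with each other and each replicate with the other 3. Cells were grown in medium with 12% fetal bovine serum by the labels and 10% by the paper, and serum is itself a source of cholesterol. The paper calls the replicates biological repeats; nothing says whether they came from separate cultures or dates, and the spread between them may be partly technical. All 4 come from 1 cell line.

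Cholesterol is built in the cytosol and endoplasmic reticulum from acetyl-CoA, by way of mevalonate, the isoprenoid farnesyl pyrophosphate and squalene. The supply is set by a feedback loop. The SREBP transcription factors are made as membrane proteins, which SCAP escorts out of the endoplasmic reticulum for cleavage when sterol is scarce, and which INSIG proteins hold back when sterol is plentiful. In the epidermis, keratinocytes make their own cholesterol, which with ceramides and fatty acids forms the lipid layers of the permeability barrier.

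The libraries held from 17056035 to 73082279 counts. Protein-coding genes took 76.1% of the counts in replicate 1, the deepest, and 95.3% to 96.4% in the others. Levels are given as TPM over protein-coding genes only, which is the count divided by the gene length and scaled so that these genes sum to 1000000 in each replicate. Replicate 1 stood apart. Across 12098 tested genes with a known base composition, its difference from the other replicates fell with the GC content of the transcript (Spearman correlation across genes, -0.51). The differences of replicates 2 to 4 rose with it (0.24 to 0.38). Each of these is taken against a mean that includes replicate 1, so their trends are not separate from its trend. All 10 keratinocyte markers were detected, led by KRT14 with a TPM of 6847 ± 561 (SD, n = 4). The summed TPM of 6 fibroblast markers lay between 5.20 and 9.70 and that of 4 melanocyte markers between 1.36 and 3.52. Of the leukocyte markers, PTPRC had 3 counts in replicate 1 and 0 in the others, while CD68, a lysosomal protein not limited to leukocytes, had a TPM of 7.94, 43.9, 38.2 and 16.1 in replicates 1 to 4.

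All 26 genes were detected, with a mean TPM above 1, as were 63.3% of the 19233 protein-coding genes. Their median over the 26 mean levels was 58.2, against 24.5 over the 12165 detected genes, and single means ran from 13.2 for STARD4 to 258 for EBP. The lowest count behind any value was 207, for HSD17B7 in replicate 2 (95% exact Poisson interval 180 to 237), and the highest was 33017, for SREBF1 in replicate 1. Together the 26 genes took 0.191%, 0.209%, 0.190% and 0.280% of the protein-coding TPM in replicates 1 to 4, so the share was highest in replicate 4. In bulk RNA, fewer cells that express a gene and less RNA per cell cannot be told apart. Of 25 neighbours in the order of means, 2 kept the same order in 4 of 4 replicates with a difference larger than its SD on the log2(TPM + 1) scale. These were MSMO1 above SCAP (0.56 ± 0.39, SD, n = 4) and HSD17B7 above INSIG2 (0.54 ± 0.29, SD, n = 4). The latter order turned with exon unions as gene length, where the mean TPM was 12.5 for HSD17B7 and 16.2 for INSIG2. The Spearman correlation of the 26 levels between replicates, a description across genes that share the library, was 0.92 to 0.96 among replicates 2 to 4 and 0.75 to 0.85 between replicate 1 and the others.

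**Figure D1:**
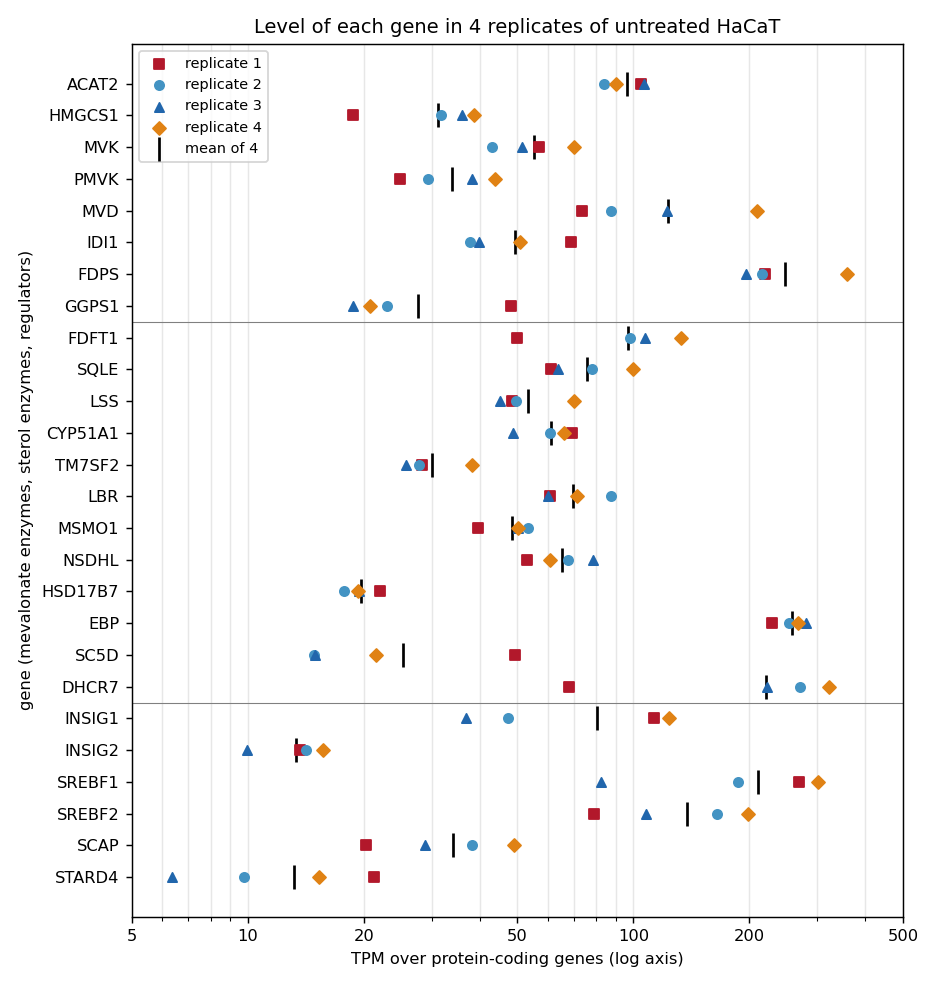
TPM of each of the 26 genes (log axis) in replicates 1 to 4, with the mean of the 4 as a black tick; the lines part mevalonate pathway enzymes, squalene and sterol enzymes, and regulators. EBP, HSD17B7 and ACAT2 show points close together, while DHCR7, SC5D, INSIG1, SREBF1 and STARD4 span more than 3-fold.

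Among the 8 mevalonate pathway enzymes, FDPS (chromosome 1, 155278539 to 155290457, plus strand; all gene positions are those of the files, for which the submitters' processing notes name hg19) had the highest level. FDPS makes farnesyl pyrophosphate, the last product shared by sterols and other isoprenoids, and its TPM was 219, 216, 196 and 357 in replicates 1 to 4. Replicate 4 stood above the other 3, which lay close together. MVD, which decarboxylates mevalonate pyrophosphate to the first isoprenoid unit, had 73.6, 87.4, 122 and 209, again highest in replicate 4. ACAT2, the cytosolic thiolase that joins acetyl-CoA units at the start of the pathway, had 105, 83.99, 106 and 90.3, a mean of 96.4 ± 11.03 (SD, n = 4) and the smallest SD of the 8 on the log2(TPM + 1) scale, 0.17.

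MVK, the kinase that first phosphorylates mevalonate, had a TPM of 56.8, 42.9, 51.4 and 70.2. IDI1, which interconverts the isoprenoid units, had 68.9, 37.8, 39.8 and 50.7. PMVK, the kinase after MVK, had 24.7, 29.3, 38.04 and 43.7. In MVK and PMVK replicate 4 was the highest, and in IDI1 replicate 1 was. HMGCS1 (chromosome 5, 43287572 to 43313614, minus strand), which makes HMG-CoA and is a classical SREBP target, had a TPM of 18.8, 31.7, 35.9 and 38.5. Replicate 1 was thus the lowest by far, and replicates 2 to 4 differed by at most 1.22-fold. GGPS1, which extends farnesyl pyrophosphate for protein prenylation rather than for sterols, went the other way with 48.2, 22.9, 18.8 and 20.7, so that replicate 1 was 2.32 times the mean of the others.

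Among the 12 enzymes from squalene to cholesterol, EBP (chromosome X, 48380164 to 48387104, plus strand), the sterol isomerase, was highest on average, with a TPM of 229, 254, 281 and 267 and a mean of 258 ± 22.1 (SD, n = 4). With exon unions DHCR7 stood above it (247 against 216), as it did without replicate 1 (271 against 267). The highest value of EBP was 1.23 times its lowest, and its SD on the log2(TPM + 1) scale was smaller than that of all but 2.33% of the detected genes. DHCR7 (chromosome 11, 71145457 to 71159477, minus strand), the reductase of the last step, which in skin also uses up the precursor of vitamin D, had 68.02, 270.2, 222 and 321. The value of replicate 1 was 0.251 times the mean of the other 3, the lowest such ratio of the 26 genes. FDFT1, squalene synthase, had 49.8, 97.9, 107 and 133, with replicate 1 also lowest.

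SC5D, the desaturase that acts before DHCR7, had a TPM of 49.4, 14.9, 14.97 and 21.5. Here replicate 1 was the highest, at 2.88 times the mean of the others. SQLE, which adds oxygen to squalene, had 61.1, 78.00, 63.8 and 99.6. LSS, which closes the ring system to lanosterol, had 48.5, 49.6, 45.1 and 70.3. In both, replicate 4 was the highest. CYP51A1, the lanosterol demethylase, had 69.3, 60.8, 48.6 and 65.96. MSMO1, the methyl sterol oxidase, had 39.5, 53.4, 50.3 and 50.3, and NSDHL, the decarboxylating dehydrogenase that follows it, had 53.1, 67.7, 78.8 and 60.8. In MSMO1 and NSDHL replicate 1 was the lowest. HSD17B7, the keto-reductase that ends the removal of the methyl groups, had 22.05, 17.8, 19.4 and 19.3 and the smallest SD of the 26 on the log2(TPM + 1) scale, 0.12. The locus HSD17B7P2, whose name marks it as a pseudogene of this enzyme, had 359, 48, 41 and 53 counts against 937, 207, 305 and 252 for HSD17B7, so its reads and those of the enzyme may have been split by the counting.

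The double bond left by CYP51A1 can be reduced by LBR, which is also a protein of the inner nuclear membrane and binds chromatin, or by TM7SF2. LBR had a TPM of 60.6, 87.4, 60.01 and 71.2 and TM7SF2 had 28.3, 27.8, 25.7 and 38.2. LBR was the higher in 4 of 4 replicates, and the TM7SF2 level peaked in replicate 4 where LBR did not.

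Of the 6 regulators and carriers, SREBF1 (chromosome 17, 17714663 to 17740325, minus strand) and SREBF2 (chromosome 22, 42229083 to 42303312, plus strand) encode the SREBP factors, of which the first is tied more to fatty acid genes and the other more to cholesterol genes. SREBF1 had a TPM of 269, 187, 82.5 and 302 in replicates 1 to 4, from 33017, 6292, 3752 and 11383 counts. Replicates 1 and 4 were the highest, and replicate 3 was the lowest, far below each of the others. SREBF2 had 78.9, 165, 108 and 199, with replicate 4 highest and replicate 1 lowest. The counts are per gene, so the isoforms of SREBF1 are not separated.

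INSIG1 (chromosome 7, 155089482 to 155101945, plus strand), the inhibitor that SREBP itself induces, had a TPM of 113, 47.3, 36.8 and 124. Replicates 1 and 4 stood well above replicates 2 and 3. INSIG2 (chromosome 2, 118845994 to 118867607, plus strand), its relative that is less dependent on SREBP, was low and even, with 13.6, 14.1, 9.98 and 15.6. STARD4, a carrier that moves cholesterol between membranes, had 21.3, 9.76, 6.36 and 15.3, with the same order of replicates 1 and 4 above 2 and 3 as INSIG1. SCAP, the escort, had 20.2, 38.2, 28.9 and 48.9, with the order of SREBF2: replicate 4, then 2, 3 and 1.

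The start regions of 4 of these regulators are shown because control by SREBP is known to act through sites near such starts. They were also picked because replicates 1 and 4 were above 2 and 3 in INSIG1, STARD4 and SREBF1 and not in SREBF2. That order also held in FDPS, TM7SF2, CYP51A1, MVK, IDI1 and SC5D but not in the rest of the set. Its share over all tested genes is not given here. Whether the sequences bear on the differences between replicates was not tested. Each sequence is the 250 bases before a RefSeq transcription start (GRCh38.p14), on the strand of the gene, with capitals for matches on either strand to a sterol regulatory element (TCACNCCAC), a CCAAT box (CCAAT, the NF-Y site), a GC box (GGGCGG, the Sp1 site) and an E-box (CACGTG).
SREBF2 (chr22:41832855-41833104, plus strand): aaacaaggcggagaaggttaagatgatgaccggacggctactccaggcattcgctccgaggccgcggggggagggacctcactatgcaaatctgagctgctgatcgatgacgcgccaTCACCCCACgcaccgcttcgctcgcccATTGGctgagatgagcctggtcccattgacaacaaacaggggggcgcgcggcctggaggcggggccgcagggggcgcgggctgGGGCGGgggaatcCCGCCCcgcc
INSIG1 (chr7:155297628-155297877, plus strand): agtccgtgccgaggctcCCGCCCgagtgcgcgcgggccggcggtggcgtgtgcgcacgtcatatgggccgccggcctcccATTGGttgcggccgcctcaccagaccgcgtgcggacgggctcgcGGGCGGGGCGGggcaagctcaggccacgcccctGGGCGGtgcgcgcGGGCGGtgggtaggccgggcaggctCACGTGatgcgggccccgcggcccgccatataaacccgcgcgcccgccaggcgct
STARD4 (chr5:111512536-111512785, minus strand): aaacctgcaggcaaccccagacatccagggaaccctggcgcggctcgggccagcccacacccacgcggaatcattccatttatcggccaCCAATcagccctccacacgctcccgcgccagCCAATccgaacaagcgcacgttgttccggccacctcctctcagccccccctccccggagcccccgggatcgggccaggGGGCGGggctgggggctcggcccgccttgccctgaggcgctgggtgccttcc
SREBF1 (chr17:17836987-17837236, minus strand): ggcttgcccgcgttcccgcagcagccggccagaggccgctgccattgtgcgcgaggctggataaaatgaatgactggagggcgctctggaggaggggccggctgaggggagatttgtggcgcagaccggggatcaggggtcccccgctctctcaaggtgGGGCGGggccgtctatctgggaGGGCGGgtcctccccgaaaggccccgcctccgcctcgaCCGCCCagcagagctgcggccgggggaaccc

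The SREBF2 sequence holds the sterol element, which ends 124 bases before the start, a CCAAT box that ends 101 bases before it and 2 GC boxes. INSIG1 holds 5 GC boxes, 1 CCAAT box and 1 E-box, STARD4 holds 2 CCAAT boxes and 1 GC box, and SREBF1 holds 3 GC boxes. Windows of 300 bases (250 before and 50 after a start) were matched for 23 of the 26 genes, with 31 windows. The sterol element occurred in 1 of the 31 windows and in 1.13% of all 35116 windows. Only the fixed pattern near the RefSeq starts used was searched, so sites that differ from it or lie elsewhere were not counted. The CCAAT box occurred in 19 of 31 against 34.6% of all windows, the GC box in 27 of 31 against 45.0%, and the E-box in 5 of 31 against 7.26%. Some genes have several windows that overlap, so the windows are not independent, and a match is a description of letters and not of a bound site.

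Pairs of genes with related roles were compared within each replicate, where the library scale cancels. A trend with GC content, as seen in replicate 1, does not cancel between genes of unlike GC content. INSIG1 had 8.31 times the counts per length of INSIG2 in replicate 1 (95% Clopper-Pearson interval 7.76 to 8.90) and 7.93 times in replicate 4 (7.07 to 8.93). In replicates 2 and 3 the ratio was 3.35 (2.92 to 3.85) and 3.69 (3.21 to 4.25). The intervals of replicates 1 and 4 overlapped each other, as did those of replicates 2 and 3, and none of the former overlapped the latter. The difference was 2.33 ± 0.70 (SD, n = 4) on the log2(TPM + 1) scale. Such intervals hold only the error of counting, because no molecular identifiers are named and several reads may be copies of 1 molecule.

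SREBF2 had 0.294 times the counts per length of SREBF1 in replicate 1 (95% Clopper-Pearson interval 0.288 to 0.300) and 0.658 times in replicate 4 (0.639 to 0.676). The ratio was 0.883 (0.853 to 0.915) in replicate 2, and it exceeded 1 in replicate 3, at 1.31 (1.25 to 1.36). SREBF1 was thus the higher in 3 of 4 replicates, and the mean difference of -0.54 ± 0.91 (SD, n = 4) lay within the spread between replicates. LBR exceeded TM7SF2 by 1.19 ± 0.31 (SD, n = 4), with ratios from 1.86 in replicate 4 to 3.14 in replicate 2, and by 1.86 on average when the joined length of all annotated exons was used in place of the deposited length. FDFT1, which commits farnesyl pyrophosphate to sterols, exceeded GGPS1 by 1.79 ± 1.19 (SD, n = 4). The ratio was 1.03 (0.991 to 1.08) in replicate 1, where the interval included equal levels, and 4.27, 5.70 and 6.42 in replicates 2 to 4. The GC content of the transcripts is 48.6% for FDFT1 and 40.4% for GGPS1, and its part in this ratio was not tested.

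**Figure D2:**
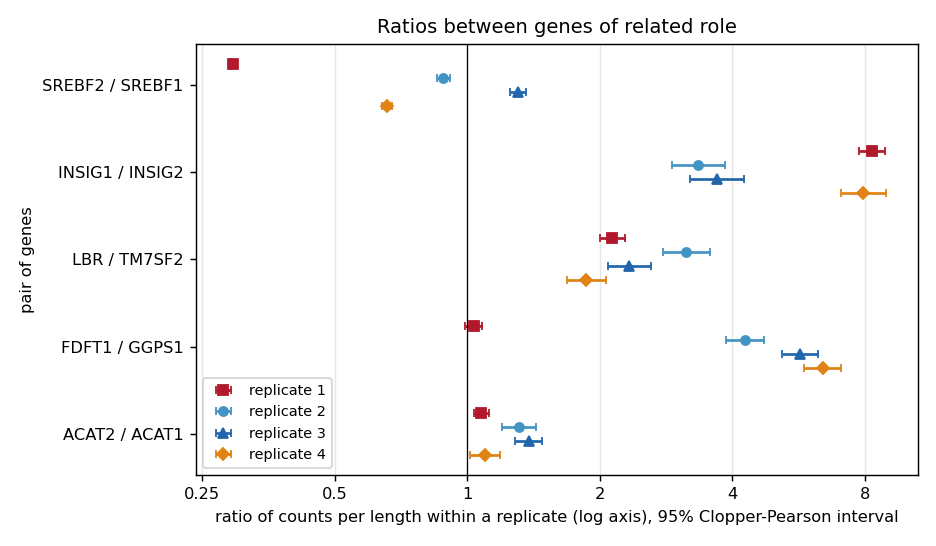
Ratio of counts per deposited gene length within each replicate (log axis, bars are 95% Clopper-Pearson intervals) for 5 pairs of genes. INSIG1 over INSIG2 falls into 8.31 and 7.93 in replicates 1 and 4 against 3.35 and 3.69 in replicates 2 and 3.

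ACAT2 and ACAT1, the mitochondrial thiolase of ketone metabolism, were near each other: ACAT1 had a mean TPM of 80.2 ± 13.8 (SD, n = 4), and ACAT2 exceeded it by 0.27 ± 0.18 (SD, n = 4), which became 0.48 with exon unions and 0.11 without length correction. In a two-sided exact permutation test that flips the signs of the 4 differences, INSIG1, LBR, FDFT1 and ACAT2 against their partners each gave p = 0.13 (rounded; adjusted 0.15), the smallest value possible, and SREBF2 against SREBF1 gave p = 0.375 (adjusted 0.375, Benjamini-Hochberg over 6 pairs). No pair could pass 0.05 with 4 replicates.

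Each replicate was then set against the mean of the other 3 on the log2(TPM + 1) scale, and a gene was counted past a difference of 1, which is about 2-fold and slightly understates low genes. This compares libraries of 1 condition and has no replicate check, so no p-value is given. In replicate 4, 21 of 26 genes lay above the mean of the others, with a median difference of 0.47, against 60.8% of all tested genes and a median of 0.13. Under the other scalings 17 to 26 of the 26 lay above, with medians of 0.32 to 1.00, and after centring within bins of GC content 19 did, with a median of 0.26. The highest of these medians came with TPM over all rows, where that of all tested genes was itself 0.64. The lowest came with median-of-ratios scaling, where that of all tested genes was -0.0037. Replicate 4 held the highest value of 15 of the 26 genes and the lowest of 0, while it held the highest of 23.3% and the lowest of 12.9% of the tested genes. All 6 regulators and carriers were above the others in replicate 4, with a median of 0.80. They were so under every other scaling and the GC centring as well (0.42 to 1.35, the highest with TPM over all rows). In replicate 3 all 6 were below, with a median of -0.79. Of all tested genes only 36.6% lay above the others there, with a median of -0.23. The median of the 6 stayed below 0 under the other scalings and the GC centring (-0.36 to -0.78), with 0 to 2 of the 6 above 0. The share of all tested genes above 0 under those settings is not given here for replicate 3 or 4. The 8 mevalonate enzymes had a median of 0.47 in replicate 4 and the 12 squalene and sterol enzymes one of 0.12, which turned to -0.02 with TMM and with median-of-ratios scaling.

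Past the difference of 1 in replicate 4 were MVD at 1.17 and INSIG1 at 1.08, 2 of 26 genes against 6.89% of all tested genes, and 0 were lower against 1.99%. FDPS, SREBF1, SREBF2 and SCAP reached 0.76, 0.91, 0.82 and 0.77, and DHCR7 stayed just under the limit. In replicate 3, SREBF1 at -1.57, INSIG1 at -1.22 and STARD4 at -1.10 were lower, 3 of 26 against 14.4%, and 0 were higher against 3.05%. In replicate 2, 0 of 26 genes were higher against 7.83%, and 0 were lower against 1.38%. In replicate 1, GGPS1 at 1.18, SC5D at 1.495 and STARD4 at 1.03 were higher, 3 of 26 against 17.4%, and DHCR7 at -1.96 and FDFT1 at -1.15 were lower, 2 of 26 against 20.1%. The share of the 26 genes past the limit was at or below that of all tested genes in each case but the higher ones in replicate 4, at 7.69% against 6.89%.

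**Figure D3:**
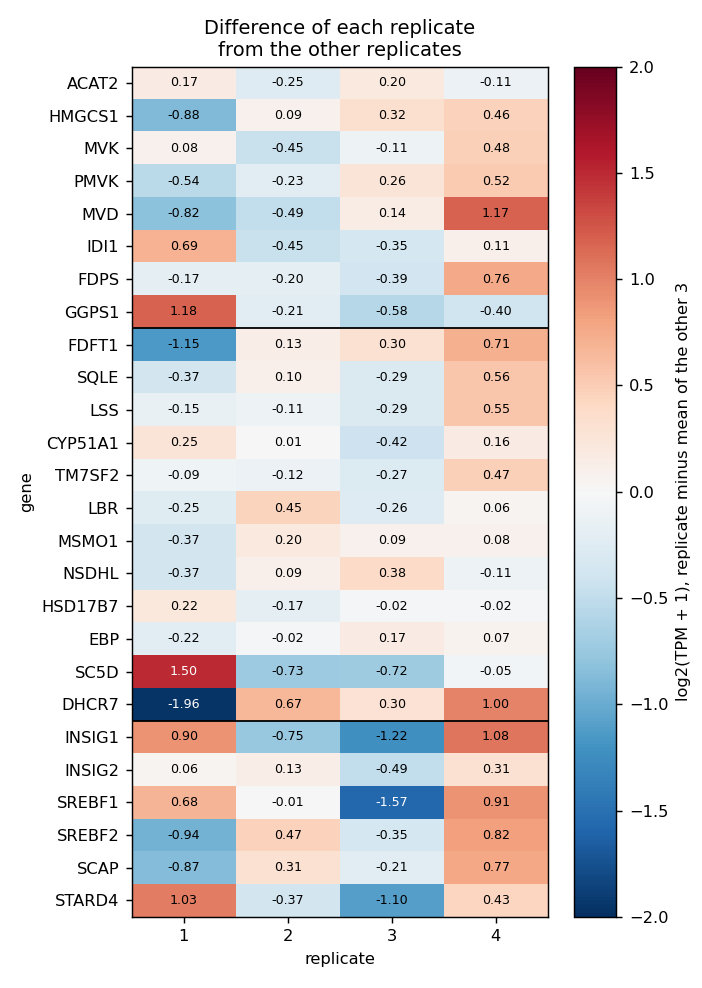
Difference in log2(TPM + 1) between each replicate and the mean of the other 3, for each of the 26 genes (rows, parted by black lines into mevalonate enzymes, squalene and sterol enzymes, and regulators) and each replicate (columns). Red fills most of replicate 4 and the regulators of replicate 3 are blue, with SREBF1 at -1.57.

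The calls of DHCR7 and FDFT1 in replicate 1 and of SREBF1 in replicate 3 held in 11 of 11 alternatives. Among these 11, dropping the filter on low values could not change a difference, and exon unions could hardly do so. The counts out of 11 therefore include alternatives that did not test a call. MVD in replicate 4 held in 10, being lost after centring within bins of GC content, an alternative chosen after seeing the data. GGPS1 and SC5D in replicate 1 held in 9, and were at 0.49 and 0.63 after that centring, while SREBF1 in replicate 1 then stood at 1.56. The GC content of the transcripts is 40.4% for GGPS1, 38.6% for SC5D, 34.2% for STARD4, 58.3% for DHCR7 and 64.7% for SREBF1. Across the 26 genes, GC content and difference had a Spearman correlation of -0.37 in replicate 1 and 0.57 in replicate 4. The difference of replicate 4 is taken against a mean that includes replicate 1, so the 2 values are not independent. The part of GC content in these differences was not tested beyond the centring. INSIG1 in replicate 3 and in replicate 4 held in 6 of 11 each, and STARD4 in 7 of 11 in replicate 1 and 5 of 11 in replicate 3. In replicate 3 the keratinocyte markers were low as well, with a median difference of -0.96 and 5 of 10 lower by over 1, against 14.4% of all tested genes. Their summed TPM was 11472 against 13062 to 16010 in the others, and their part in the low SREBF1 was not tested.

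Over the 26 genes, the median SD of log2(TPM + 1) between replicates was 0.37, against 0.52 over all tested genes, and without replicate 1 these were 0.29 and 0.33. The median was 0.25 for the 12 squalene and sterol enzymes, 0.39 for the 8 mevalonate enzymes and 0.65 for the 6 regulators and carriers. Within replicates 2 to 4 alone, SREBF1 spanned 3.66-fold and INSIG1 3.37-fold, while MSMO1 spanned 1.06-fold and HSD17B7 1.09-fold.

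Fatty acid synthesis shares the SREBP factors, and its 11 listed genes were all detected. Their median difference was -0.41, 0.12, -0.37 and 0.77 in replicates 1 to 4. SCD, the desaturase that makes oleic acid, had the highest mean and a TPM of 1279.6, 627, 307 and 1249.8, with replicates 1 and 4 above 2 and 3 as for INSIG1 and STARD4. FASN, fatty acid synthase, had 26.7, 345, 155 and 719, so that replicates 1 and 4, alike in SCD, differed by 26.9-fold. FASN has a GC content of 65.3% and SCD one of 47.1%. ACLY, which supplies cytosolic acetyl-CoA to both pathways, had 118, 288, 201 and 298, and ELOVL6, a fatty acid elongase, had 8.82, 25.2, 16.6 and 33.2. In replicate 1, 2 of the 11 were higher (SCD and GPAM) and 3 lower (ACLY, FASN and ELOVL6), against 17.4% and 20.1% of all tested genes. In replicate 2, FASN was higher, against 7.83% of all tested genes. In replicate 4, 2 were higher (FASN and ELOVL6), against 6.89%, and in replicate 3 SCD was lower, at -1.70, against 14.4%.

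Of 11 listed genes of SREBP cleavage and of sterol-regulated protein breakdown, 10 were found, and all 10 were detected. The proteases MBTPS1 and MBTPS2, which cleave SREBP in the Golgi, had 73.95, 57.7, 49.96 and 86.4 and 5.69, 16.95, 9.10 and 15.5. MBTPS1 followed the order of SREBF1, with replicate 4 highest and replicate 3 lowest. In replicate 1, RNF139 was higher and MBTPS2 and NPLOC4 were among those lower by over 1, against 17.4% and 20.1% of all tested genes. In replicates 2 to 4 none of the 10 passed that difference in either direction, against shares of all tested genes from 1.38% to 14.4%. The highest of the 10 was UFD1L with 134 ± 23.7 (SD, n = 4).

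Genes of sterol efflux, many of them induced by LXR, the receptor for oxidized sterols, had a median over 7 mean TPM levels of 4.80, and 6 of the 7 were detected. ABCA1, the main exporter of cholesterol, had 3871, 198, 21 and 75 counts and a TPM of 15.2, 2.84, 0.222 and 0.958. ABCG1, a related exporter, had 8.77, 1.92, 0.309 and 2.12, and MYLIP, an LXR-induced ubiquitin ligase, had 36.7, 13.02, 6.99 and 15.2. All 3 were highest in replicate 1 and lowest in replicate 3, at 2.95, 2.10 and 1.63 against the others in replicate 1. They were thus higher by over 1 there, against 17.4% of all tested genes. In replicate 3 all 3 were lower by over 1, against 14.4%. ABCA1 was also lower by over 1 in replicate 4, against 1.99%. The LXR genes themselves were steadier, with 72.3, 75.4, 89.9 and 71.9 for NR1H2 and 20.7, 19.2, 18.3 and 13.04 for NR1H3. CH25H, the enzyme that makes an oxidized sterol, was low and reached 5.89 in replicate 3. It was lower by over 1 in replicate 1, against 20.1% of all tested genes, and higher in replicate 3, against 3.05%. CYP27A1 was not detected, with 11, 0, 4 and 1 counts.

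**Figure D4:**
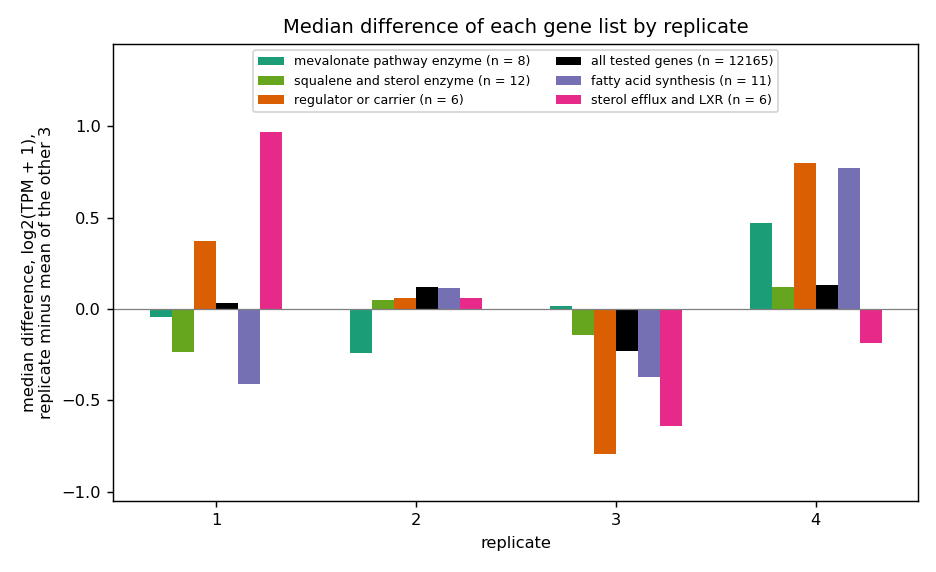
Median over each gene list of the difference in log2(TPM + 1) between a replicate and the mean of the other 3, for the 3 groups of the 26 genes, 2 related lists and all tested genes (bars, n in the legend). In replicate 4 the regulators stand at 0.80 and fatty acid synthesis at 0.77, while sterol efflux stands at -0.19.

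Reads of neighbouring genes limit some values. By the positions in the files 11 of the 26 genes overlap another gene, 10 of them one on the opposite strand, and whether counting used the strand is not given in the sources used here. ACAT2 shares 615 bases with TCP1 and 573 with SOD2, and FDPS shares 3813 bases with RUSC1-AS1. RUSC1-AS1 had 239, 587, 634 and 797 counts, which is 2.73% of those of FDPS in replicate 1 and 18.2% to 24.8% in the others. None of the 10 FDPS pseudogenes had more than 26 counts. MIR33B and MIR33A lie within SREBF1 and SREBF2 and had at most 56 counts. SREBF1 shares 105 bases with RAI1 on the opposite strand, and TM7SF2 shares 7 with VPS51 on the same strand. Levels also rest on the deposited gene lengths: with exon unions the mean TPM was 66.6 for HMGCS1, 66.8 for PMVK, 56.0 for SC5D, 22.4 for STARD4, 97.4 for CYP51A1, 80.1 for IDI1, 30.9 for MVK, 121 for INSIG1 and 12.5 for HSD17B7, each over 1.5 times from the value above, while differences between replicates of 1 gene hardly use the length.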

How the data were processed

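RNA-seq of untreated HaCaT cells in 4 replicates was analysed, grouped by the sample titles. For each replicate the authors deposited raw counts per gene and a gene length, with RPKM for replicates 1 and 2 and TPM for replicates 3 and 4. The submitters' processing notes name hg19, HISAT2, TopHat2, Bowtie2 and HISAT without roles; the counting program is not given in the sources used here. The total count was 73082279, 17056035, 19745170 and 19083836, and 3 counts, taken as the limit of detection, equal 0.0410 to 0.176 counts per 1000000.

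TPM over protein-coding genes was computed from the deposited counts and lengths for all 4 replicates, since the deposited RPKM and TPM are different units. Genes with a mean TPM above 1 were tested (12165). Differences are on the log2(TPM + 1) scale. For the 6 pairs, exact permutation tests (two-sided) flipped the signs of the replicates' differences. The rule of the replicate calls, coded separately, was run on simulated libraries with known changes. Those libraries had no trend with GC content, so the simulation does not measure the error of the calls in these data. The 26 genes, lists and tests were chosen with earlier results of these data known. A pair of genes and some listed genes are not reported here. All 26 genes and both genes of the other 5 pairs are named, as are the highest and lowest gene of each related list, those past a difference of 1 and genes overlapping one of the 26. MARCH6 was not found under its symbol. Alternatives were TPM over all rows, exon unions (GENCODE release 29, by gene name, 98.8% matched), counts without length correction, a pseudocount of 0.1, other detection limits, edgeR 4.0.16 TMM and DESeq2 1.42.0 median-of-ratios scaling, leaving out each replicate and, chosen after seeing the data, centring within 20 bins of GC content. Work was done in R 4.3.3 and Python 3.11.15 (SciPy 1.17.1, NumPy 2.4.6, matplotlib 3.10.9, pandas 2.3.3).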

Additional observations from a re-analysis of the deposited data

Results flagged for a closer look

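In 33 sets of 4 values, 1 for each replicate, 1 replicate stood past the 95% limit of Dixon's test in 2 sets; chance alone gives about 1 in 20, or 1.65. The TPM of FDPS was 357 in replicate 4 against 196 to 219 in the other 3, a gap of 0.855 of the range. The TPM of GGPS1 was 48.2 in replicate 1 against 18.8 to 22.9, a gap of 0.858 of the range.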

How the results depend on the processing

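No paired comparison of groups was possible because there is 1 group, and only genes were paired within a replicate. All 26 genes were detected in every alternative in which detection was counted, and the 5 pair differences kept their direction in each one run on them, while the 4 replicates cannot pass 0.05 in any. Scaling over all rows lowered replicate 1, whose median over all tested genes moved to -1.30, while those of replicates 2 to 4 were 0.55, 0.16 and 0.64. In that setting the median over the 26 genes was -1.66, 0.41, 0.18 and 1.00 in replicates 1 to 4, their median SD was 0.88, 0 genes were higher and 20 lower in replicate 1, 1 was higher in replicate 2, 1 lower in replicate 3 and 13 higher in replicate 4. Without length correction 1 gene was higher in replicate 4, and the share of the 26 genes was 0.281% of protein-coding counts. With TMM and with median-of-ratios scaling alike, 1 gene was lower in replicate 3 and 1 higher in replicate 4. After GC centring 1 gene was higher and 5 lower in replicate 1, 1 lower in replicate 3 and 1 higher in replicate 4. When each replicate was left out in turn, the genes higher in replicate 1 numbered 2 to 5 and those lower 2 to 4, those higher in replicate 2 0 to 1 and lower 0 to 2, those lower in replicate 3 2 to 4, and those higher in replicate 4 2 to 4, and the median SD was 0.29 to 0.40. Without replicate 2, 4 genes were higher in replicate 4. Without replicate 3, 4 were lower in replicate 1 and 2 in replicate 2. Without replicate 4, 5 were higher in replicate 1 and 1 in replicate 2, and the medians of both turned to 0.06. Apart from the library scale, the cause of these shifts was not tested. The counts of genes in these alternatives stand without the share over all tested genes, so they cannot be read as particular to the 26. Depth did not limit the 26 genes, each with at least 207 counts.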

Other observations

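Genes that use isoprenoids outside sterol synthesis or move sterol between compartments were all detected, 10 of 10 in each list. FNTB, the catalytic subunit of protein farnesyltransferase, had a TPM of 3.55, 38.04, 35.2 and 33.5 in replicates 1 to 4, while FNTA, its partner subunit, had 102, 56.8, 60.8 and 50.2, so the order of replicate 1 was opposite in the partners of 1 enzyme. PGGT1B, a subunit of geranylgeranyl transferase, had 26.4, 11.5, 11.4 and 12.01. NUS1, a subunit of the enzyme that makes dolichol, had 7.13, 13.6, 14.3 and 21.01. In replicate 1 PGGT1B was higher by over 1 on the log2(TPM + 1) scale, against 17.4% of all tested genes. NUS1 and FNTB were lower by over 1 there, against 20.1%. FNTB was also higher by over 1 in replicate 2, against 7.83%. The lowest of this list was PDSS2 with 10.02 ± 3.64 (SD, n = 4).

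SCARB1, a receptor for high-density lipoprotein, had 4.79, 59.2, 52.1 and 48.2, from 319, 1079, 1283 and 984 counts, and replicate 1 differed from the others by -3.22 on the same scale. It was the one gene of sterol transport and esterification past the difference of 1 in any replicate. It was lower in replicate 1, against 20.1% of all tested genes, and higher in replicates 2 and 3, against 7.83% and 3.05%. NPC2, which hands cholesterol out of lysosomes, had the highest level of that list, 470.0 ± 97.3 (SD, n = 4), and SOAT1, which esterifies cholesterol, the lowest, 16.9 ± 4.08 (SD, n = 4).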
